A study of Homo sapiens with 51 samples.

Results

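The 44 human genes that encode collagen alpha chains were described, chosen as the rows of the count table whose gene symbol is COL, a number, A and a number. They are 44 of 58051 gene rows, and each was placed in a textbook class, giving 11 fibrillar, 8 basement membrane and 25 other chains. The cells were H1, a single established human embryonic stem cell line, profiled as bulk RNA-seq in 51 libraries, 3 in each of 17 groups. Untreated cells at 0 h were kept in mTeSR1 on Matrigel. Treated cells were grown in TeSR E5 with FGF2, insulin and a compound spelled LY29004 in the labels, and received either Activin A at 100 ng/mL with BMP4 at 10 ng/mL (the Activin condition) or BMP4 at 50 ng/mL without Activin (the BMP4 condition). Both conditions were sampled after 1, 6, 12, 24, 36, 48, 72 and 96 h. The conditions differ in Activin and in BMP4 dose at once, and both differ from untreated cells in medium, so these factors cannot be told apart. Nothing in the labels says that the 3 libraries of a group came from separate cultures, and the spread behind each p-value may be technical.

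Library totals ran from 22788905 to 30354633 counts. All 44 genes passed the filter on low counts, although a gene such as COL19A1 could pass through the groups in which it is high, and 31 reached a mean of 5 CPM (the count scaled to the library's total) in at least 1 group. Values are CPM after TMM scaling. Fold changes come from edgeR's quasi-likelihood test, and a call required a change of at least 2-fold and an adjusted p (Benjamini-Hochberg, over all 19603 genes tested) under 0.05. In untreated cells all 6 pluripotency markers listed (POU5F1, NANOG, SOX2, LIN28A, DNMT3B and L1TD1) were counted, with a summed level of 8546 to 8781 CPM. That sum was 3885 to 4158 CPM in the Activin condition at 96 h and 3535 to 3750 CPM in the BMP4 condition at 96 h. Libraries of the Activin condition at 48 h (replicate 2) and 96 h (replicate 3) and of the BMP4 condition at 12 h (replicate 1) stood apart from their replicates. In bulk RNA, fewer cells of a type and less RNA per cell cannot be told apart.

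Collagen chains assemble in the endoplasmic reticulum into helical trimers, in which each turn of the helix depends on a glycine-led repeat, Gly-X-Y. Fibrillar chains form the banded fibres of connective tissue, basement membrane chains form the sheet-like networks under epithelia, and the remaining families decorate fibrils, form beaded filaments or span the cell membrane. Prolyl hydroxylases, the chaperone HSP47, propeptide proteinases and lysyl oxidases act on the chains before and after secretion, and in early embryos type IV collagen is among the main components of the first basement membranes.

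The repeat that defines the family is visible in the gene structure, and an exon each of the type I, III and V chains is shown because the fibrillar results turn on these genes. Each is an exon of 54 bases that encodes 6 Gly-X-Y repeats, with the glycine codons (GGN) in capitals, read 5′ to 3′ along the gene's strand from GRCh38 with the GENCODE v29 annotation.
COL3A1 exon 6, chr2:188988081-188988134, plus strand: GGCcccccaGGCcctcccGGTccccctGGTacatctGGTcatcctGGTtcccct
COL5A2 exon 6, chr2:189097277-189097330, minus strand: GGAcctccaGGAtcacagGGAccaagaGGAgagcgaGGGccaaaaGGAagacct
COL5A1 exon 15, chr9:134753850-134753903, plus strand: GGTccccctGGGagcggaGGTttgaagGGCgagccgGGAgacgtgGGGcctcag
COL1A1 exon 8, chr17:50197949-50198002, minus strand: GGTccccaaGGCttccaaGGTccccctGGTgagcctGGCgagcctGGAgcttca
COL1A2 exon 8, chr7:94404693-94404746, plus strand: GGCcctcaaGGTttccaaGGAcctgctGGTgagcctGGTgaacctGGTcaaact
In the 11 fibrillar genes, 305 of 627 inner coding exons (48.6%) were 54 bases long and 84.2% had a length that is a multiple of 9 bases. In the 8 basement membrane genes 4.4% were 54 bases and 46.2% a multiple of 9, and in the 25 other genes 16.6% and 57.7%. The longest stretch with an unbroken glycine repeat had a median of 338 repeats in the fibrillar chains (216 to 343), 39.5 in the basement membrane chains (30 to 66) and 56 in the others (23 to 113).

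The number of collagen genes that differed between the conditions grew from 24 to 96 h. With edgeR, no collagen gene was called between BMP4 and Activin conditions at 1, 6 or 12 h, and DESeq2 called none either. At those times 3, 8 and 15 of the 44 had an unadjusted p under 0.05, and 0.0051%, 0.51% and 1.42% of all genes tested were called. At 24 h 2 collagen genes were higher and 2 lower with BMP4, against 4.06% (2.44% higher and 1.61% lower) of all genes tested. At 36 h 5 were higher and 6 lower, against 5.68% (3.09% higher and 2.59% lower) of all genes. The 36 h count of collagen genes ran from 8 to 11 when single libraries were left out. COL11A2 lost its call in at least 1 of these runs, as did COL10A1, COL15A1, COL19A1 and COL28A1, all under 1 CPM at 36 h. At 48 h 7 were higher and 4 lower, or 25% of the 44, against 9.44% (4.98% higher and 4.46% lower) of all genes. At 72 h 11 were higher and 7 lower, or 40.9%, against 9.97% (5.2% higher and 4.77% lower), and at 96 h 14 were higher and 7 lower, or 47.7%, against 15.8% (7.7% higher and 8.1% lower).

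Against the 3 untreated libraries, which all of the following comparisons share, 25 collagen genes were called in the Activin condition at 96 h, 21 of them higher, where 26.6% of all genes were called, 16.6% higher and 10% lower. With BMP4 at 96 h 26 were called, 23 of them higher, where 23.3% of all genes were called, 14.7% higher and 8.64% lower. Earlier, 7, 8, 17, 19 and 25 collagen genes were called in the Activin condition at 12, 24, 36, 48 and 72 h (4 at 12 h without untreated replicate 1), beside 6.77%, 7.98%, 10.6%, 15.9% and 21.1% of all genes. With BMP4 9, 9, 13, 14 and 21 were called at the same times, beside 5.7%, 7.26%, 8.44%, 12.3% and 17%. Of the 8 basement membrane genes 7 rose in the Activin condition at 96 h, with a median log2 fold change of 2.07 over the class, and 5 rose and 1 fell in the BMP4 condition, with a median of 1.51. Of the 11 fibrillar genes 5 rose and 1 fell in the Activin condition (median 0.77), and 6 rose and 1 fell in the BMP4 condition (median 1.23). The median of all genes tested was 0.04 in both. Set directly against each other at 96 h, 6 fibrillar genes were higher and 1 lower with BMP4 (median 1.21), no basement membrane gene was higher and 2 were lower (median -0.60), and 8 other genes were higher and 4 lower (median 0.15), beside a median of 0.01 over all genes. The 2 lower basement membrane genes were COL4A3 and COL4A4, whose highest group means were 1.38 and 3.64 CPM, and none of the more abundant chains of that class was called.

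**Figure D1:**
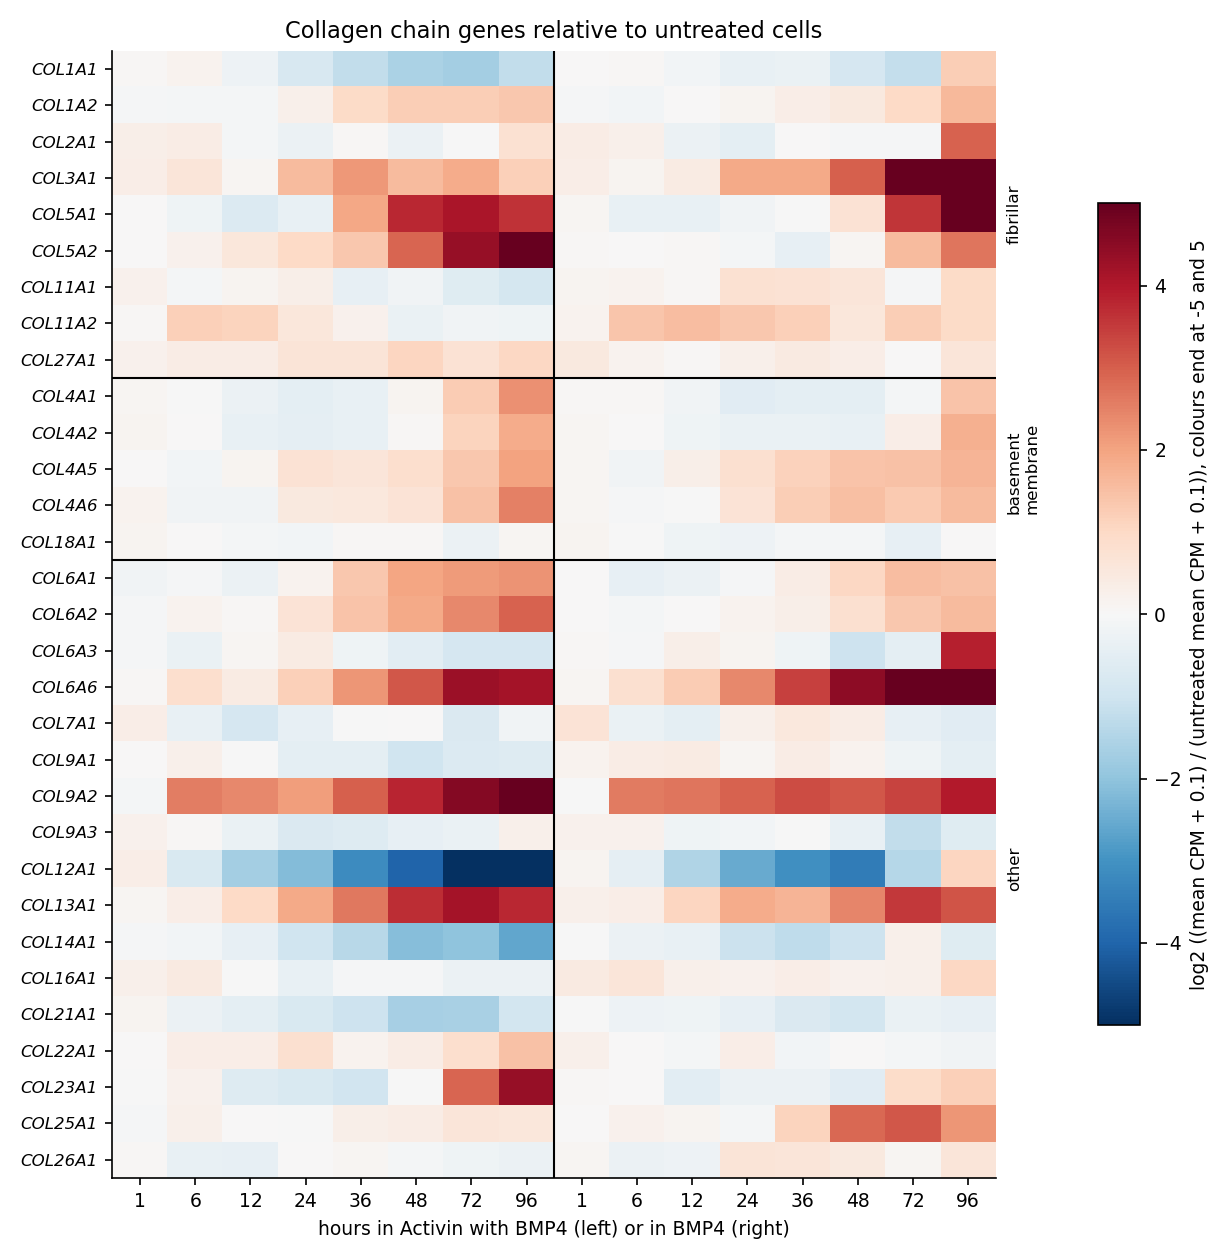
Colour gives the log2 ratio of the group mean CPM to the untreated mean, each plus 0.1 CPM, for the 31 collagen genes that reached 5 CPM, by hours in the Activin condition (left) and the BMP4 condition (right), with colours ending at -5 and 5. COL5A2 and COL9A2 each have their highest value in the Activin condition at 96 h, COL3A1 and COL5A1 each in the BMP4 condition at 96 h, and COL12A1 is below the untreated level from 12 to 72 h in both.

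Levels of different genes were compared after division by transcript length, as CPM per kb of the annotated transcript with the longest coding sequence. On this scale fibrillar chains made up 21.2% ± 0.375 (SD, n = 3) of the summed collagen level in untreated cells, basement membrane chains 38.1% ± 0.244 and the other chains 40.7% ± 0.522. The leading chain in untreated cells was COL18A1, at 62.7 ± 1.55 CPM per kb, or 19.2% of the summed level. Its level is uncertain because its exons overlap those of SLC19A1 and the use of strand in counting is not known. The shares of all classes carry this limit. In the Activin condition at 96 h the fibrillar share was 30.7% ± 1.89 and COL5A2 led, at 241 ± 11.6 CPM per kb. In the BMP4 condition the fibrillar share was 19.2% ± 0.254 at 48 h. At 96 h it was 41.7% ± 0.289, while the basement membrane share was 27.8% ± 1.3 and that of the other chains 30.6% ± 1.45. In that group COL6A1 (98.1 ± 2.3 CPM per kb) and COL5A1 (88.2 ± 11.5 CPM per kb) were the highest chains, and their spreads overlap. The summed fibrillar level at 96 h was 356 ± 10.6 CPM per kb with Activin and 375 ± 27 CPM per kb with BMP4, and the libraries overlapped. The sums of the basement membrane chains were 342 ± 49 and 250 ± 27.2 CPM per kb in the same order. Those of the other chains were 466 ± 38.3 and 274 ± 7.33 CPM per kb, so the larger fibrillar share with BMP4 went with lower sums of the other classes.

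**Figure D2:**
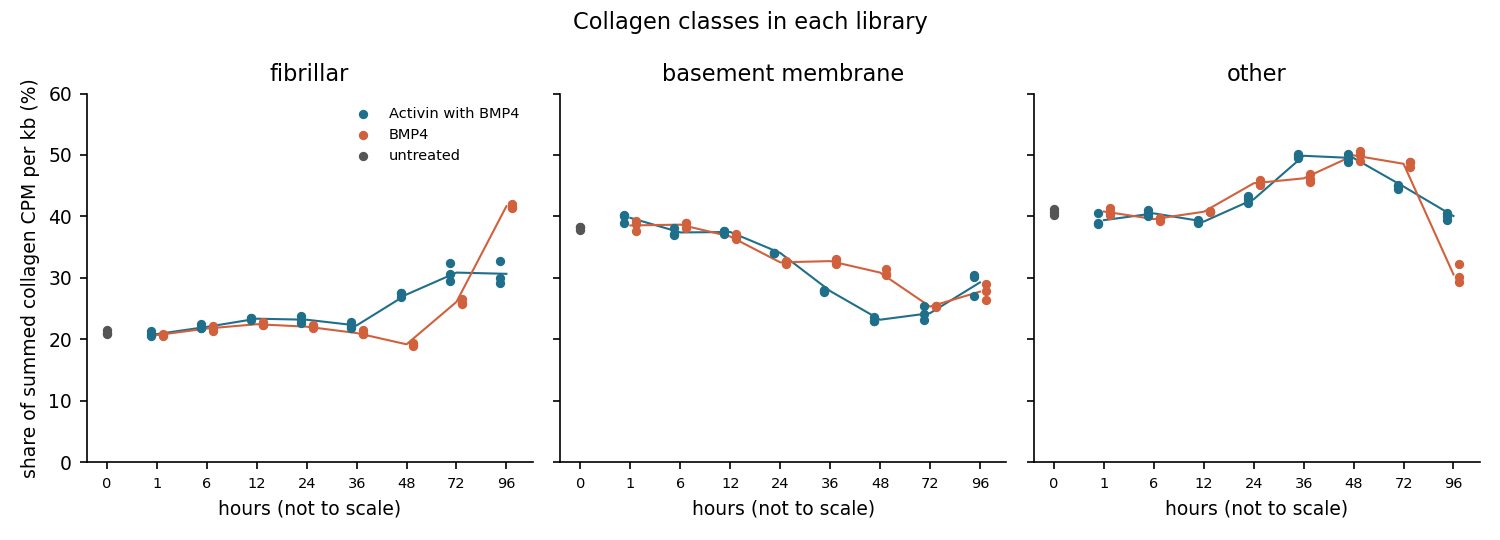
Points give the share of the summed collagen CPM per kb held by each class in each library, lines the group means, over hours (not to scale). The BMP4 libraries at 96 h have the largest fibrillar share, with a mean of 41.7%, and the smallest share of other chains. All shares depend on COL18A1, whose level is uncertain.

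COL3A1, the chain of the type III homotrimer of pliable tissues, showed the largest difference between the conditions of all 44 genes at 96 h. It lies at chr2:188974320-189012746 on the plus strand. The untreated libraries held 4 COL3A1 counts in all. In the Activin condition at 96 h the libraries held 0.333, 0.368 and 0.0696 CPM. In the BMP4 condition they held 1.32, 0.977 and 1.12 CPM at 48 h, 54.7, 52.9 and 57.9 CPM at 72 h and 442, 471 and 425 CPM at 96 h. Every BMP4 library at 72 and 96 h lay far above every Activin library. COL3A1 was higher with BMP4 at 48 h (log2 fold change 1.67, SE 0.35, adjusted p = 8.58e-05), at 72 h (log2 fold change 6.87) and at 96 h (log2 fold change 10.73, SE 0.15, adjusted p = 2.77e-44).

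COL5A2, an alpha chain of the fibril-nucleating type V collagen, is the neighbour of COL3A1 at chr2:189031896-189225312 on the minus strand, tail to tail with 19.1 kb between them, and it differed in the opposite direction. It stood at 43.8, 45.7 and 46.9 CPM in untreated cells. In the Activin condition it was 334, 356 and 352 CPM at 48 h and 1703, 1787 and 1623 CPM at 96 h. With BMP4 it was 46.5, 49.9 and 49.2 CPM at 48 h and 298, 304 and 275 CPM at 96 h. The groups did not overlap at either time. COL5A2 was lower with BMP4 at 24 h (log2 fold change -1.10), 36 h (-1.77), 48 h (-2.84), 72 h (-2.80) and 96 h (log2 fold change -2.54, SE 0.04, adjusted p = 2.3e-37). It nevertheless rose in both conditions by 96 h, 37.5-fold in the Activin condition and 6.43-fold in the BMP4 condition relative to untreated cells.

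COL5A1, the partner chain of type V collagen (chr9:134641774-134844843, plus strand), changed its order between the conditions. At 36 h it was 82.5, 80.6 and 89.5 CPM in the Activin condition and 22, 21.2 and 22.6 CPM in the BMP4 condition. At 72 h it was 391, 376 and 345 CPM and 233, 266 and 282 CPM, a difference that did not reach 2-fold. At 96 h it was 291, 284 and 234 CPM in the Activin condition and 818, 788 and 635 CPM in the BMP4 condition. The BMP4 libraries, all lower from 36 to 72 h, were then all above, as they had been at 12 and 24 h. The change of the difference between 48 and 96 h was 4.56 on the log2 scale (SE 0.11, edgeR adjusted p = 1.23e-31). Per kb, the ratio of COL5A1 to COL5A2 was 0.405 ± 0.00961 in untreated cells. It was 0.779, 0.695 and 0.73 in the Activin libraries at 48 h and 0.143, 0.133 and 0.12 at 96 h. In the BMP4 libraries it was 0.649, 0.605 and 0.604 at 48 h and 2.29, 2.17 and 1.93 at 96 h. An exact two-sided permutation test of 3 against 3 libraries cannot give a p below 0.1, so these ratios are given as values.

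COL1A1 and COL1A2, whose chains together form the common type I heterotrimer, moved apart. COL1A1 (chr17:50183289-50201632, minus strand) stood at 156, 155 and 143 CPM in untreated cells and at 50, 50.6 and 49.3 CPM in the Activin condition at 48 h, a fall called from 36 h on (log2 fold change -1.60, SE 0.08, adjusted p = 2.01e-21 at 48 h). COL1A2 (chr7:94394561-94431232, plus strand) stood at 122, 122 and 124 CPM in untreated cells and 290, 288 and 278 CPM in the Activin condition at 48 h, a rise (log2 fold change 1.22, SE 0.05, adjusted p = 2.73e-23). The partners thus went in opposite directions in the same libraries. Per kb, COL1A1 to COL1A2 was 0.991 ± 0.0606 in untreated cells, 0.141 ± 0.00225 in the Activin condition at 48 h and 0.165 ± 0.00721 at 96 h. In the BMP4 condition it was 0.389 ± 0.0228 at 48 h, 0.217 ± 0.0208 at 72 h and 0.754 ± 0.0226 at 96 h. The ratios of the conditions did not overlap at any time from 24 h on.

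COL1A1 turned between 72 and 96 h in the BMP4 condition. It was 70.2, 64.3 and 64.5 CPM at 72 h, below untreated cells (log2 fold change -1.19, SE 0.08, adjusted p = 1.43e-17), and 360, 377 and 326 CPM at 96 h, above them (log2 fold change 1.23, SE 0.07, adjusted p = 9.68e-19). The Activin libraries at 96 h held 58.8, 58.7 and 74 CPM, and COL1A1 was 5.55-fold higher with BMP4 (log2 fold change 2.47, SE 0.08, adjusted p = 1.85e-28). COL1A2 rose 2.53-fold and 3.08-fold over untreated cells in the Activin and BMP4 conditions at 96 h, reaching 285, 300 and 346 CPM and 389, 389 and 355 CPM, and it was not called between them at any time.

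**Figure D3:**
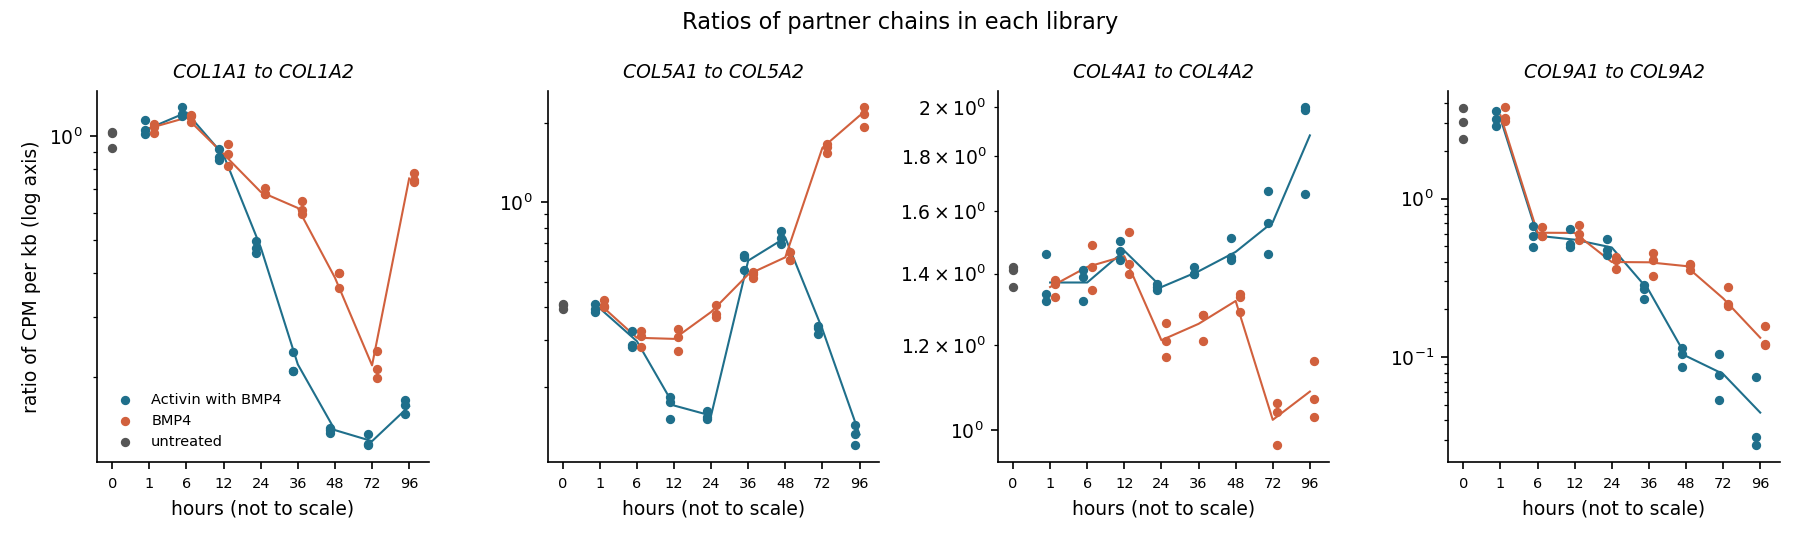
Points give the ratio of CPM per kb of partner chains in each library on log axes, lines the group means, over hours (not to scale). COL1A1 to COL1A2 stays below 0.2 in the Activin libraries at 48, 72 and 96 h, and COL5A1 to COL5A2 lies on opposite sides of the untreated value of 0.405 in the conditions at 96 h.

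COL2A1 and COL11A1, which encode chains of cartilage fibrils, were higher with BMP4 at 96 h. COL2A1 was 13.6, 13.1 and 12.8 CPM in untreated cells and 12.4, 11.6 and 14.4 CPM in the BMP4 condition at 72 h. At 96 h it was 108, 111 and 93.3 CPM there and 21.9, 20.5 and 24.8 CPM in the Activin condition (log2 fold change 2.21, SE 0.10, adjusted p = 1.36e-22). The BMP4 libraries at 96 h were the only ones above 30 CPM. COL11A1 was 122, 117 and 103 CPM with BMP4 and 32.5, 35.7 and 25.7 CPM with Activin at 96 h (log2 fold change 1.86, SE 0.08, adjusted p = 3.95e-24), while untreated cells held 55.9, 63 and 56.1 CPM and neither condition was called against them at that time. The 4 chondrogenic markers listed (SOX9, ACAN, MATN1 and SNORC) summed to 10.9 to 11.3 CPM in untreated cells, 4.85 to 6.26 CPM in the Activin and 58.2 to 85.3 CPM in the BMP4 condition at 96 h, with none at 0. Their part in the result was not tested.

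COL11A2, another chain of type XI collagen, was among the earliest to rise. It stood at 2.17, 2.73 and 2.89 CPM in untreated cells and at 7.12, 5.96 and 5.23 CPM and 7.83, 6.3 and 6.68 CPM in the Activin and BMP4 conditions at 6 h, with log2 fold changes of 1.23 and 1.42. By 96 h it was 1.89, 2.14 and 2.61 CPM with Activin and 4.22, 4.97 and 6.09 CPM with BMP4 (log2 fold change 1.21, SE 0.17, adjusted p = 8.26e-08). COL27A1, a fibrillar chain with a shortened helix, ran between 27.3 and 57.7 CPM over the group means and was called only in the Activin condition against untreated cells, at 48 h (log2 fold change 1.08, SE 0.14, adjusted p = 1.1e-08) and 96 h (log2 fold change 1.02, 0.73 without Activin replicate 1 and 0.98 without untreated replicate 1 or 2). COL5A3 and COL24A1 stayed below 3 CPM in every group mean. COL5A3 fell in the Activin condition from 24 to 72 h (at 24 and 36 h -0.84 and -0.86 on the log2 scale without untreated replicate 2, and at 36 h -0.94 without Activin replicate 2, all under the threshold) and in the BMP4 condition at 96 h (log2 fold change -1.18, and -0.96 without untreated replicate 2), and COL24A1 was called in no comparison of groups.

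Beside the rises of COL3A1, COL1A1 and COL2A1 in the BMP4 condition at 96 h, several marker sums were higher than in the Activin condition. They were those of mesodermal, amnion, fibroblast-like, endothelial and neural markers. The 6 lateral plate and extraembryonic mesoderm markers (HAND1, HAND2, FOXF1, PRRX1, PDGFRA and TWIST1) summed to 769 to 891 CPM there, to 34.9 to 52.3 CPM in the Activin condition and to 6.59 to 7.36 CPM in untreated cells, where HAND2 and FOXF1 were at 0. The 6 amnion markers (TFAP2A, GATA3, ISL1, GABRP, VTCN1 and IGFBP3) summed to 1442 to 1567 CPM at 72 h and 1446 to 1635 CPM at 96 h with BMP4, and to 39.2 to 57.8 CPM with Activin at 96 h. The amnion sum thus stood at a similar level at 72 h, when COL1A1 was still below untreated cells. The 4 fibroblast-like markers (LUM, DCN, POSTN and THY1) summed to 236 to 255 CPM in untreated cells. At 96 h they summed to 273 to 303 CPM with BMP4, against 69.6 to 98.6 CPM with Activin, where DCN was at 0. With BMP4 at 24 h, where LUM and DCN were at 0, the sum was 244 to 255 CPM. A sum of this size can thus rest on POSTN and THY1 alone. The 4 endothelial markers (CDH5, PECAM1, TEK and KDR) summed to 288 to 304 CPM in untreated cells, and at 96 h to 766 to 1001 CPM with BMP4 and 208 to 217 CPM with Activin. In the same order, the 3 neural markers (SOX1, PAX6 and NES) summed to 375 to 407 CPM, 610 to 747 CPM and 239 to 318 CPM. The 5 trophoblast markers (CGA, CGB5, PSG1, ERVW-1 and SDC1) summed to 36.1 to 37 CPM with BMP4 and 63.7 to 69.8 CPM in untreated cells. PSG1 was at 0 in both of these groups and CGB5 in untreated cells, so the sums rest on the remaining markers. The part of these markers in the collagen results was not tested.

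**Figure D4:**
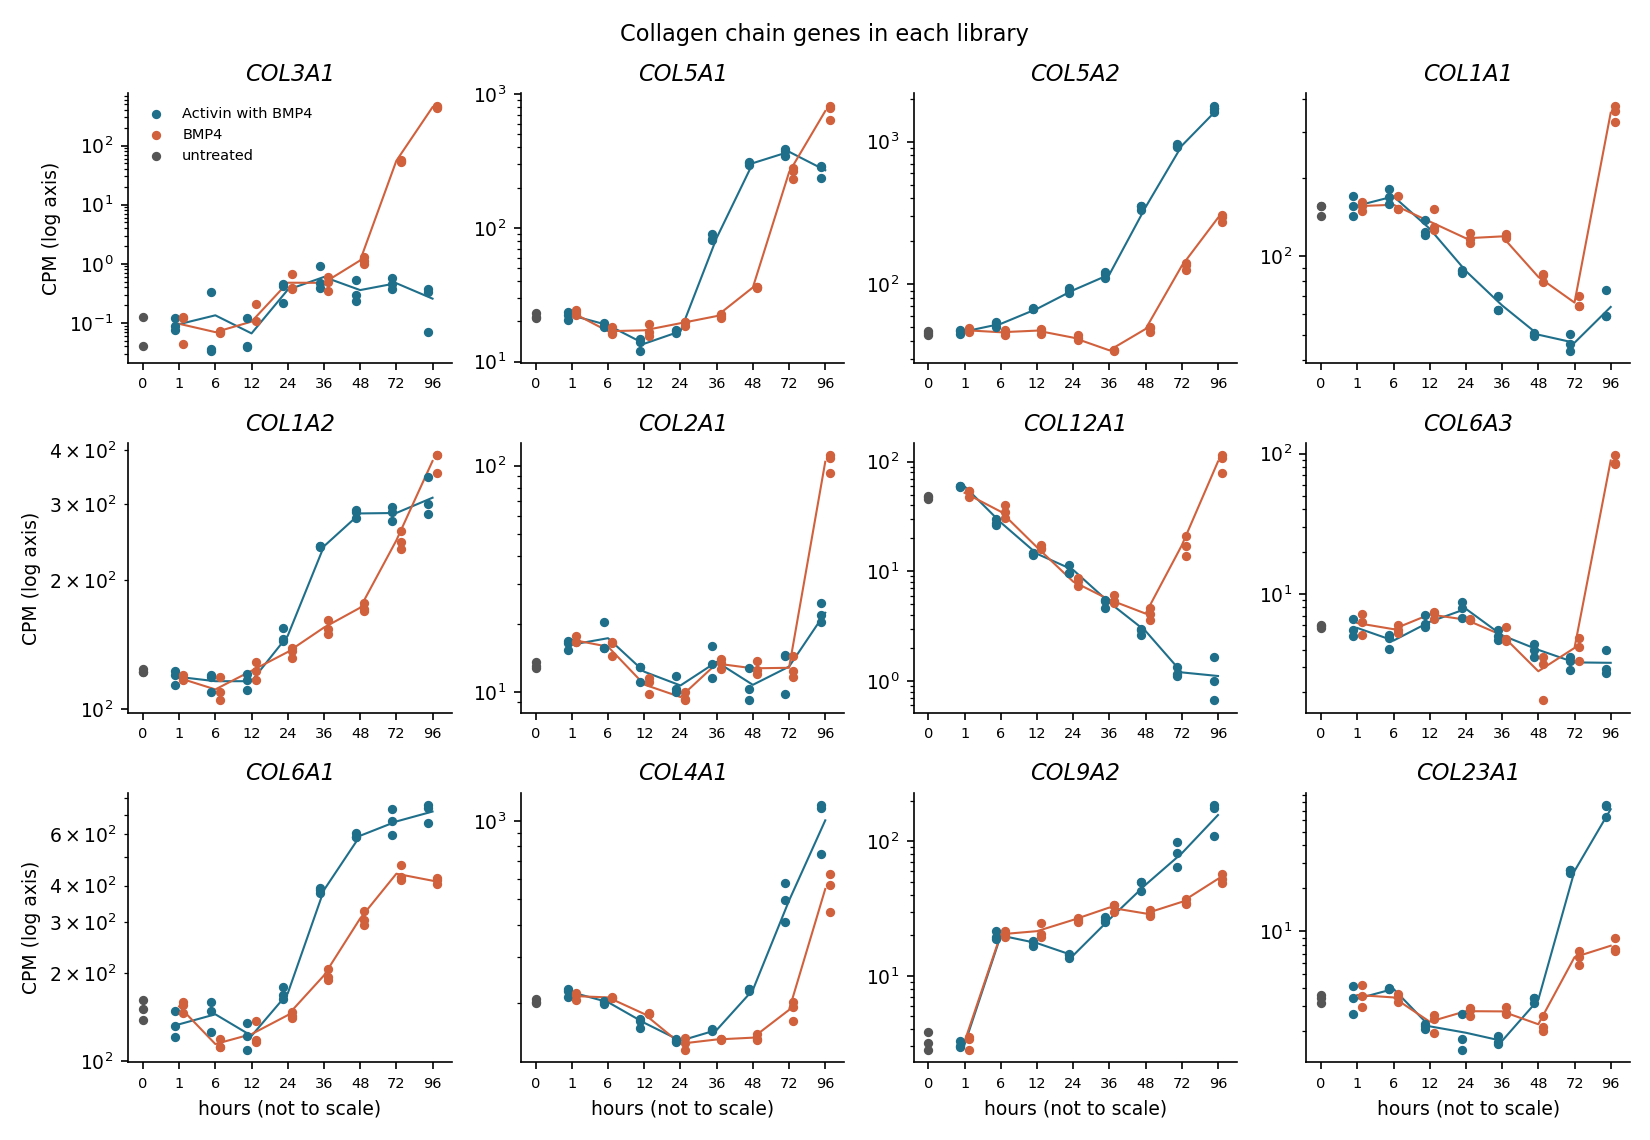
Points give the CPM of 12 collagen genes in each library on log axes, lines the group means, over hours (not to scale), with libraries at 0 not drawn (COL3A1 in 1 untreated and 1 BMP4 library). COL3A1, COL1A1, COL2A1, COL12A1 and COL6A3 are highest in the BMP4 libraries at 96 h, and COL5A2, COL9A2 and COL23A1 in the Activin libraries at 96 h.

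The basement membrane genes of type IV collagen lie as 3 pairs, the partners of each transcribed in opposite directions. For 2 pairs the stretch between the starts is shown, and the levels of the partners are given below. Capitals mark a GC box (GGGCGG) or a CCAAT box (CCAAT), searched on both strands together with a TATA box (TATAAA). The bases are from the RefSeq promoter windows of GRCh38.p14, outside the starts annotated in GENCODE v29 and RefSeq, and for COL4A6 and COL4A5 only the part nearest COL4A5.
COL4A4 and COL4A3, chr2:227164454-227164564, plus strand: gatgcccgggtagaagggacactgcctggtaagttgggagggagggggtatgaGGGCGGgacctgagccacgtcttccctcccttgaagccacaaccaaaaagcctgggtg
COL4A6 and COL4A5, chrX:108439588-108439837, plus strand: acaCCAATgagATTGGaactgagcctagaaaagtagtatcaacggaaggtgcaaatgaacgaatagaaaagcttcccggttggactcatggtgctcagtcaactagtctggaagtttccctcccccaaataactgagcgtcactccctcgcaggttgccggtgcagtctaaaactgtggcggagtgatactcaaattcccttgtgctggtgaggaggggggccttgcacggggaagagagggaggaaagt
The COL4A4 and COL4A3 stretch of 111 bases holds 1 GC box, where 32.9% of all 35116 RefSeq promoters hold at least 1 over the same length, and no CCAAT box, where 19.5% do. The COL4A5 stretch of 250 bases holds 2 CCAAT boxes, where 32% of all promoters hold at least 1, and no GC box, where 42.6% do. Neither stretch holds TATAAA. The promoter table held windows for 32 of the 44 collagen genes. For COL4A1 and COL4A2 the spans annotated in GENCODE v29 overlap, and no stretch is shown.

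COL4A1 and COL4A2, the chains of the ubiquitous type IV network, rose together late. COL4A1 (chr13:110148963-110307233, minus strand) was 202, 208 and 201 CPM in untreated cells, 1119, 1151 and 750 CPM in the Activin condition and 629, 569 and 448 CPM in the BMP4 condition at 96 h. Within the Activin group, replicate 3, the library that stood apart, was the lowest. COL4A1 rose in both conditions (log2 fold change 2.31, SE 0.10, adjusted p = 1.88e-23 with Activin and log2 fold change 1.43, SE 0.10, adjusted p = 1.13e-16 with BMP4). Between the conditions it was lower with BMP4 at 72 h (log2 fold change -1.39, SE 0.10, adjusted p = 8.35e-16), and at 96 h the difference did not reach 2-fold. COL4A2 (chr13:110305812-110513209, plus strand) was 146, 143 and 140 CPM, 550, 568 and 444 CPM and 531, 520 and 427 CPM in the same order, with rises of 1.86 and 1.78 on the log2 scale, and the conditions overlapped. Per kb, COL4A1 to COL4A2 was 1.36, 1.42 and 1.41 in untreated cells, 2, 1.99 and 1.66 with Activin and 1.16, 1.07 and 1.03 with BMP4 at 96 h, without overlap between the conditions.

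COL4A5 and COL4A6, which form networks in kidney, skin and smooth muscle, rose in both conditions, and the order of the conditions turned for both genes. COL4A6 was 27.8, 28.2 and 25.1 CPM in untreated cells. At 48 h it was 44.4, 42.4 and 43.2 CPM in the Activin and 76.3, 75.8 and 76.8 CPM in the BMP4 condition, a rise over untreated cells in the BMP4 condition (2.82-fold, adjusted p = 1.76e-26). At 96 h it was 157, 164 and 145 CPM with Activin and 77.2, 84.6 and 84.6 CPM with BMP4. The change of the difference between these times was -1.74 on the log2 scale (SE 0.07, edgeR adjusted p = 3.66e-24), though neither difference alone reached 2-fold. COL4A5 went from 30.5 ± 0.626 CPM to 124 ± 9.45 CPM with Activin and 99.8 ± 3.67 CPM with BMP4 at 96 h, log2 fold changes of 2.03 and 1.71. Its BMP4 libraries lay above the Activin libraries from 12 to 48 h, overlapped them at 72 h and lay below them at 96 h. The change of its difference from 48 to 96 h was not called.

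COL4A3 and COL4A4, known from glomerular basement membrane, were low throughout and differed in the late groups. COL4A4 was 1.24, 1.41 and 1.17 CPM in untreated cells, 4.3, 4.35 and 2.26 CPM with Activin and 0.614, 0.504 and 0.786 CPM with BMP4 at 96 h (log2 fold change -2.50, SE 0.24, adjusted p = 6.03e-12), and it rose in the Activin condition against untreated cells (log2 fold change 1.51). COL4A3 had 117 counts over the Activin libraries at 96 h, 23 over the untreated ones and 3 over the BMP4 ones. The BMP4 to Activin ratio was 0.0256, with an exact 95% interval of 0.0052 to 0.0766 that covers counting error only. Both partners were highest in the Activin condition at 96 h.

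COL18A1, the source of endostatin, was at 307 to 459 CPM over all 17 group means and was called in no comparison. Its exons overlap those of SLC19A1 on the opposite strand over 16.4% of their length, and its level is uncertain because the sources used here do not say whether counting used strand. COL15A1, its closest relative, stayed under 1 CPM in every group mean, rose in both conditions at 96 h (log2 fold changes 2.28 and 1.98) and was not called between them then. Beside the basement membrane rises of the Activin condition at 96 h, the 6 definitive endoderm markers (SOX17, FOXA2, CXCR4, GATA4, CER1 and HHEX) summed to 2908 to 3861 CPM, against 112 to 133 CPM with BMP4 and 5.83 to 7.4 CPM in untreated cells, and the 3 primitive streak markers (TBXT, MIXL1 and EOMES) to 443 to 577 CPM, 147 to 180 CPM and 1.65 to 2.1 CPM. Their part in the result was not tested.

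The beaded-filament chains of type VI collagen took different courses. COL6A1 and COL6A2, 93 kb apart on chromosome 21 and transcribed the same way, rose in both conditions. COL6A1 went from 151, 138 and 162 CPM to 756, 742 and 659 CPM with Activin and 419, 424 and 405 CPM with BMP4 at 96 h, log2 fold changes of 2.26 and 1.47. The conditions did not overlap but differed by less than 2-fold. COL6A2 went from 62.5, 63.6 and 65.8 CPM to 508, 493 and 467 CPM and 184, 195 and 191 CPM and was lower with BMP4 from 36 to 96 h (log2 fold change -1.37, SE 0.04, adjusted p = 4.06e-28 at 96 h). The third chain of the common trimer, COL6A3 (chr2:237324003-237414375, minus strand), was 5.7, 6.03 and 5.87 CPM in untreated cells, 3.32, 4.15 and 4.88 CPM with BMP4 at 72 h, 86.4, 97.1 and 84.6 CPM with BMP4 at 96 h and 2.93, 2.74 and 4 CPM with Activin at 96 h. All BMP4 libraries at 96 h stood above all others, 27.7-fold higher than the Activin libraries (log2 fold change 4.79, SE 0.12, adjusted p = 7.51e-32).

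COL6A6, a relative of COL6A3, was 5.75, 4.61 and 4.71 CPM with Activin and 11, 12.7 and 12.1 CPM with BMP4 at 72 h, and was higher with BMP4 from 24 to 96 h (log2 fold change 1.20 at 96 h). Untreated cells held 0, 0.201 and 0.293 CPM. COL6A5 stayed under 3 CPM in every group mean, peaked with BMP4 at 48 h (2.4, 2.85 and 3.1 CPM) and was higher there than with Activin from 24 to 48 h (log2 fold change 1.83 at 48 h). Per kb, untreated cells held 35.4 ± 2.87 CPM per kb of COL6A1, 18.5 ± 0.486 CPM per kb of COL6A2 and 0.546 ± 0.0153 CPM per kb of COL6A3.

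Among the fibril-associated chains, COL12A1, which coats type I fibrils, fell in both conditions and returned in 1. At chr6:75084326-75206051 on the minus strand, it stood at 48.2, 47.9 and 45.4 CPM in untreated cells. In the Activin condition it was 9.69, 9.75 and 11.5 CPM at 24 h and 0.667, 1 and 1.67 CPM at 96 h, a fall called at every time from 12 h (log2 fold change -5.39, SE 0.17, adjusted p = 1.47e-28 at 96 h). In the BMP4 condition it was 3.64, 4.6 and 4.13 CPM at 48 h, 13.9, 21 and 16.9 CPM at 72 h and 108, 114 and 79.2 CPM at 96 h. It was below untreated cells with BMP4 from 12 to 72 h and above them at 96 h (log2 fold change 1.08, and 0.97, under the threshold of 2-fold, without BMP4 replicate 2). Between the conditions it was 88.9-fold higher with BMP4 at 96 h (log2 fold change 6.47, SE 0.16, adjusted p = 6.02e-32), and the change of that difference from 48 h was 5.95 on the log2 scale.

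COL14A1, a close relative of COL12A1, fell in the Activin condition from 59, 57.9 and 63.1 CPM to 7.85, 7.36 and 14.4 CPM at 96 h (log2 fold change -2.60, SE 0.13, adjusted p = 3.25e-21). With BMP4 it was 27.5, 23.2 and 24.4 CPM at 36 h, 63.3, 79.1 and 73.5 CPM at 72 h and 38, 39.2 and 42.4 CPM at 96 h, and it was higher than with Activin from 48 to 96 h (log2 fold change 2.28 at 72 h). COL16A1 was 7.76 ± 0.744 CPM in untreated cells and was called between the conditions only at 96 h, higher with BMP4 (16.5, 15.3 and 16.4 against 6.11, 5.08 and 7.62 CPM, log2 fold change 1.36, SE 0.12, adjusted p = 3.35e-13). Its BMP4 libraries also lay above the Activin libraries at 12, 24, 36 and 72 h, without a call. COL21A1 fell in the Activin condition, from 6.02 ± 0.51 CPM to 1.85 ± 0.483 CPM at 48 h (log2 fold change -1.71, SE 0.16, adjusted p = 2.18e-12), and was higher with BMP4 at 72 h (log2 fold change 1.32). COL22A1, known from myotendinous junctions, went the other way: it was 10.7, 10.9 and 8.87 CPM with Activin and 3.34, 2.77 and 3.34 CPM with BMP4 at 96 h (log2 fold change -1.68, SE 0.11, adjusted p = 1.35e-17), beside 3.57, 3.78 and 3.52 CPM in untreated cells.

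COL19A1 had no count in the untreated libraries, 71 counts over the Activin libraries and 371 over the BMP4 libraries at 96 h. Set against a floor of 3 counts over the untreated group, that is at least 20.6-fold higher with Activin and at least 109-fold higher with BMP4. It was 4.49, 4.32 and 4.39 CPM with BMP4 and 0.593, 1.07 and 0.8 CPM with Activin at 96 h (log2 fold change 2.40, SE 0.20, adjusted p = 1e-14). COL20A1 stayed under 1 CPM, with 2 to 14 counts over the late treated groups, and its differences are not read here. Its calls, such as that between the conditions at 72 h, are included in the counts of called genes.

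The chains of type IX collagen, which sits on the surface of cartilage fibrils, took different courses. COL9A2 (chr1:40300487-40317813, minus strand) was 3.17, 3.82 and 2.81 CPM in untreated cells. At 1 h it was 2.96, 3.31 and 3.01 CPM with Activin and 3.52, 2.81 and 3.42 CPM with BMP4, and at 6 h 21.6, 18.9 and 19.3 CPM and 21.6, 20.2 and 19.3 CPM. The libraries of both conditions at 6 h were thus all above all earlier ones, 6.08-fold and 6.22-fold over untreated cells (log2 fold change 2.61, SE 0.18, adjusted p = 1.69e-15 with Activin, adjusted p = 1.11e-15 with BMP4). At 6 h 3 collagen genes were called in each condition against the shared untreated libraries, COL9A2 and COL11A2 higher and COL8A1 lower (in the Activin condition -1.03 on the log2 scale, but -0.72 without its replicate 1 and -0.98 without untreated replicate 2), where 5.76% of all genes were called with Activin (3.97% higher, 1.79% lower) and 5.12% with BMP4 (3.5% higher, 1.61% lower). By 96 h COL9A2 was 185, 175 and 109 CPM with Activin and 48.6, 56.8 and 52 CPM with BMP4 (log2 fold change -1.57, SE 0.11, adjusted p = 9.96e-16).

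COL9A1 and COL9A3 were called in neither condition at 6 h. COL9A1 was 16.1 ± 1.1 CPM in untreated cells and 19.2 ± 2.01 CPM and 20.6 ± 0.912 CPM at 6 h, and COL9A3 was 68.9 ± 3.15 CPM, 71.8 ± 8.81 CPM and 79.5 ± 1.4 CPM. COL9A1 was higher with BMP4 at 48 h (17, 19.6 and 17.8 against 9.39, 7.52 and 7.16 CPM, log2 fold change 1.17, SE 0.14, adjusted p = 1.23e-09), and COL9A3 was called once, lower with BMP4 than in untreated cells at 72 h (log2 fold change -1.22). Per kb, COL9A1 to COL9A2 was 3.04 ± 0.663 in untreated cells, 0.583 ± 0.0888 and 0.609 ± 0.0468 at 6 h, and 0.0448 ± 0.0262 with Activin and 0.133 ± 0.0218 with BMP4 at 96 h. COL9A1 ends 5.1 kb from the end of COL19A1, tail to tail, and the levels of these neighbours are those given above.

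The transmembrane collagens, which are shed from the cell surface, took different courses in the conditions. COL23A1 (chr5:178237618-178590555, minus strand) was 3.45, 3.58 and 3.18 CPM in untreated cells and stayed between 1.72 and 3.96 CPM in the group means up to 48 h. In the Activin condition it was 26.9, 26.7 and 25.8 CPM at 72 h and 76.4, 75.2 and 63.4 CPM at 96 h, and in the BMP4 condition 6.64, 5.87 and 7.3 CPM and 7.3, 9.01 and 7.53 CPM. It was lower with BMP4 at 72 h (log2 fold change -2.00) and at 96 h (log2 fold change -3.17, SE 0.09, adjusted p = 2.3e-30). COL25A1, first known as a component of amyloid plaques, showed the opposite order. It was 4.24, 4.4 and 3.64 CPM with Activin and 24.8, 24.2 and 21.6 CPM with BMP4 at 48 h (log2 fold change 2.52, SE 0.10, adjusted p = 1.68e-24), and with BMP4 26.8, 29.7 and 28 CPM at 72 h and 15, 14.9 and 14.7 CPM at 96 h. COL25A1 was called in the Activin condition against untreated cells at no time.

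COL13A1, found at cell adhesions and neuromuscular junctions, rose in both conditions. It was 3.05, 3.1 and 3.39 CPM in untreated cells and by 72 h 57.2, 59.5 and 58.4 CPM with Activin and 37.5, 39.2 and 37.9 CPM with BMP4, log2 fold changes of 4.20 and 3.59. It was lower with BMP4 at 48 h (18.7, 18.1 and 16.4 against 41.1, 43.2 and 41.9 CPM, log2 fold change -1.24) and was not called between the conditions at other times. COL17A1, the hemidesmosomal collagen, stayed under 3 CPM, fell in the Activin condition at 72 and 96 h and was higher with BMP4 at 96 h (log2 fold change 1.49, SE 0.23, adjusted p = 3.52e-07).

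COL26A1 and COL7A1 were called in no comparison. COL26A1 ran from 56.2 to 117 CPM over the group means and COL7A1, the chain of anchoring fibrils, from 4.21 to 12.4 CPM. The short-chain collagens were low. COL8A1 fell from 1.1 ± 0.0616 CPM in untreated cells to 0.141 ± 0.112 CPM with Activin and 0.107 ± 0.0591 CPM with BMP4 at 48 h (log2 fold changes -2.89 and -3.30) and was higher with BMP4 at 72 h (log2 fold change 1.98, SE 0.37, adjusted p = 2.09e-05). COL8A2 was called in no comparison. COL10A1 was the only collagen gene called at 1 h, in the BMP4 condition against untreated cells (0.539 ± 0.0961 CPM against 0.203 ± 0.0367 CPM, log2 fold change 1.39, SE 0.42, adjusted p = 0.0232), where 1.31% of all genes were called. In the Activin condition at 1 h edgeR and DESeq2 called none of the 44, and 9 had an unadjusted p under 0.05, beside 0.923% of all genes called. DESeq2 gave it no adjusted p, and the call was lost without a filter on low counts and without untreated replicate 2 or 3 (log2 1.38 and 1.27) or BMP4 replicate 1 or 3 (1.34 and 1.28). COL28A1 stayed under 1 CPM.

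The difference between the conditions itself changed between 48 and 96 h for 18 collagen genes, upward in 10 and downward in 8, where 15.9% of all genes were called, 7.31% upward and 8.55% downward. Of the fibrillar genes 6 moved toward BMP4 and 1 away from it (median 1.01), of the basement membrane genes 0 and 3 (median -0.60), and of the other genes 4 and 4 (median -0.29), beside a median of -0.01 over all genes tested. Of the 3 basement membrane genes only COL4A6 reached 5 CPM in any group mean. COL4A3, another of them, was not called without replicate 2 of the BMP4 condition at 48 h (edgeR adjusted p = 0.0741). The fibrillar gene that moved away from BMP4 was COL24A1, under 1 CPM in every group mean (log2 change -1.14, adjusted p = 0.0386). It was not called with DESeq2 (adjusted p = 0.0697), without a filter on low counts (0.0903), with only the groups compared (0.113), without the 3 libraries that stood apart (0.0648), or without replicate 1 or 2 of the Activin condition at 48 h, its replicate 1 at 96 h, replicate 3 of the BMP4 condition at 48 h or its replicate 1 or 3 at 96 h (log2 change -1.1 to -0.81).

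**Figure D5:**
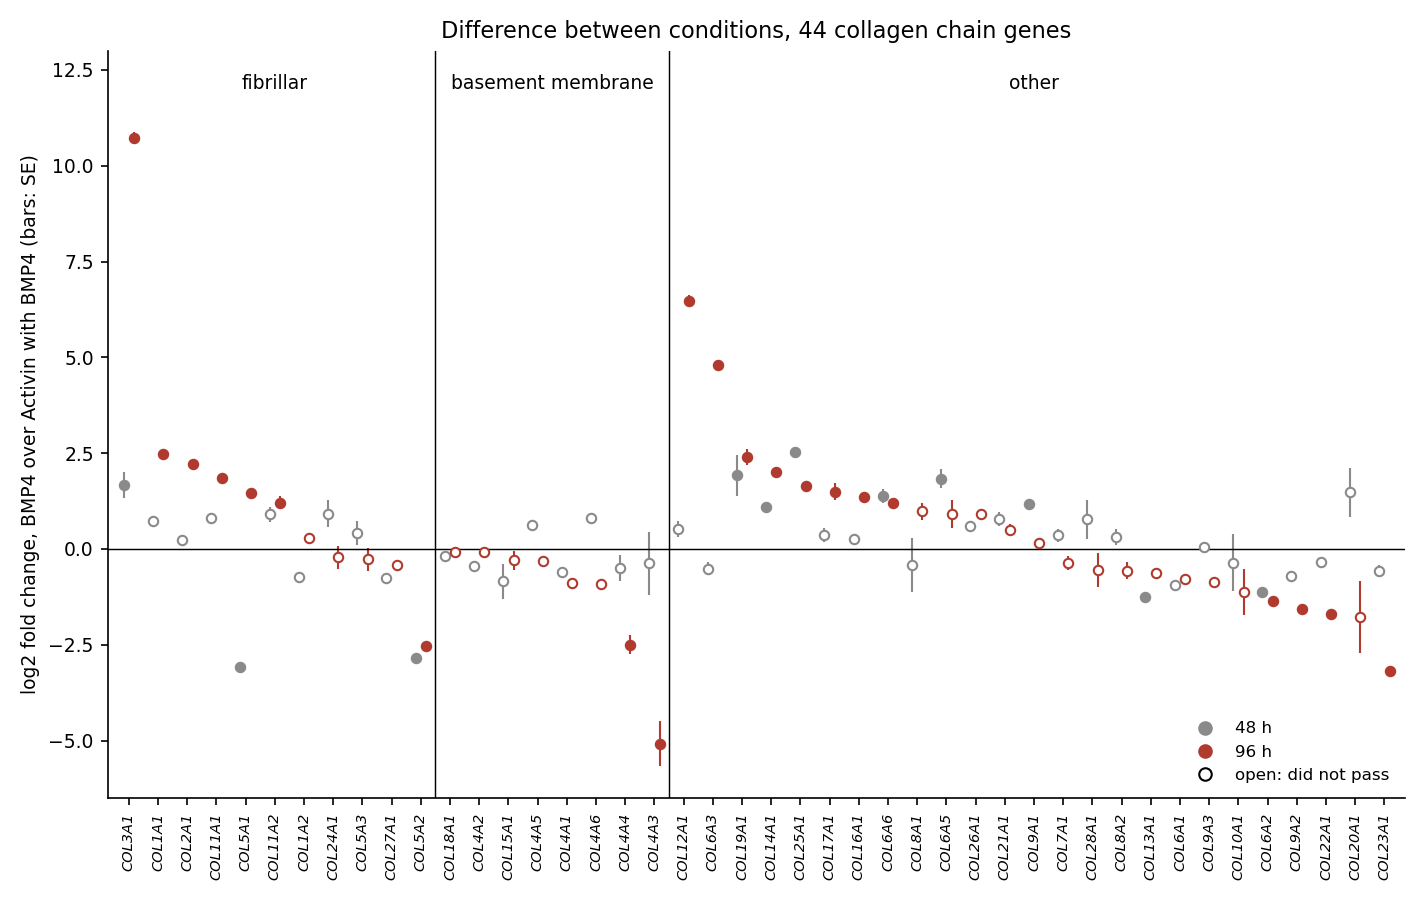
Points give the log2 fold change of BMP4 over the Activin condition at 48 h (grey) and 96 h (red) with its SE for all 44 genes, by class and ordered by the value at 96 h. Filled points passed the test, and at 96 h filled points above 0 are 6 of 11 fibrillar, 0 of 8 basement membrane and 8 of 25 other genes.

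Genes that process or bind collagen were read from a list of 49, of which 46 were tested. Between the conditions 1 was higher and 6 were lower with BMP4 at 48 h (15.2% of the list, against 9.44% of all genes), and 9 were higher and 3 lower at 96 h (26.1% of the list, against 15.8% of all genes). LOX, which crosslinks fibrils, was 1.99 ± 0.341 CPM with Activin and 21.3 ± 3.9 CPM with BMP4 at 96 h (log2 fold change 3.41, SE 0.15, adjusted p = 3.88e-23). The collagen-binding integrin subunit ITGA2 was 7.63 ± 1.43 CPM and 39.6 ± 10.6 CPM (log2 fold change 2.37), the procollagen N-proteinase ADAMTS2 3.97 ± 0.929 CPM and 19.7 ± 1.71 CPM (2.31), and the receptor DDR2 2.83 ± 0.936 CPM and 12.8 ± 1.15 CPM (2.17). The procollagen C-proteinase BMP1 changed sides, being lower with BMP4 at 48 h (log2 fold change -1.07) and higher at 96 h (1.07).

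Prolyl 3-hydroxylase P3H2, an enzyme with a preference for basement membrane collagen, was lower with BMP4. It was 59.2 ± 3.07 CPM in untreated cells, 526 ± 17.7 CPM with Activin and 188 ± 16.8 CPM with BMP4 at 96 h (log2 fold change -1.49, SE 0.08, adjusted p = 1.29e-19). At 48 h P3H2 (log2 fold change -1.61, SE 0.08, adjusted p = 7.39e-20), DDR2 (log2 fold change -1.42) and the collagen galactosyltransferase COLGALT2 (log2 fold change -1.15) were lower with BMP4. Against untreated cells at 96 h 10 of the 46 rose and 6 fell with Activin (34.8%, against 26.6% of all genes), and 18 rose and 3 fell with BMP4 (45.7%, against 23.3%). The general machinery stood at high levels. P4HB, SERPINH1 (HSP47) and PPIB ran from 411 to 557, 426 to 626 and 299 to 363 CPM over the means of untreated cells and both conditions at 48 and 96 h, and none was called in those comparisons.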

How the data were processed

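The deposited table holds whole-number counts per gene for 51 libraries, with Ensembl identifiers. Per the submitters' processing notes the authors used cutadapt 1.5, STAR 2.5.2a, RSEM 1.3.0 and GRCh38. The annotation release, the strand setting and whether the counts are rounded estimates are not given in the sources used here. Symbols were matched for 98.1% of rows. The 44 members, their classes and every gene list were chosen with earlier results of these data known. All 51 libraries, grouped by treatment and time from the labels, were fitted at once with edgeR 4.0.16 in R 4.3.3 (TMM factors of 0.966 to 1.03, filterByExpr with a minimum count of 10, quasi-likelihood test on 34 residual degrees of freedom). A call required at least 2-fold and an adjusted p (Benjamini-Hochberg, 19603 genes) under 0.05. The 25 comparisons set BMP4 against Activin and each of them against untreated cells at 8 times, plus how far the first difference moved from 48 to 96 h.

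Members with a group mean of at least 5 CPM were described singly. The other 13 were to be given by range and counts, but values of COL4A3, COL4A4, COL5A3, COL6A5, COL8A1, COL10A1, COL15A1, COL17A1, COL19A1 and COL24A1 were added after they were seen. Of the processing list, genes were open to naming if called, at 10 CPM or more in 1 of the groups compared, and among the 4 highest or 4 lowest log2 fold changes between the conditions at 48 or 96 h, and BMP1 and 3 uncalled genes of the general machinery were added after their values were seen. Alternatives were RLE and no scaling factors, no filter and a stricter one, DESeq2 1.42.0, a replicate block, only the groups compared, each library left out in turn, and, chosen after seeing the data, the 3 libraries that stood apart left out at once. The count test was checked on simulated data with known fold changes. The simulation gave all genes the same spread and altered only well-counted genes. It therefore does not cover calls at low counts or groups with a library that stood apart. Intervals and floors cover counting error only. No protein sequences were used here.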

Additional observations from a re-analysis of the deposited data

Results flagged for a closer look

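For 13 of the collagen genes that reached 5 CPM in a group, the log2 difference between the BMP4 and Activin conditions itself changed between 48 and 96 h, by edgeR's test of that change. The change was toward BMP4 for COL3A1 (9.06), COL12A1 (5.95), COL6A3 (5.3), COL5A1 (4.56), COL2A1 (1.97), COL1A1 (1.74), COL16A1 (1.1), COL11A1 (1.07) and COL1A2 (1.01). It was toward the Activin condition for COL23A1 (-2.6), COL4A6 (-1.74), COL22A1 (-1.33) and COL9A1 (-1.02).

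The 4 smallest of these lie at the threshold of 2-fold and depend on single libraries. COL11A1 was at 0.94 without replicate 3 of the Activin condition at 96 h, COL16A1 at 0.96 without replicate 2 of that group, COL1A2 at 0.96 without its replicate 1, and COL9A1 at -0.78 without its replicate 3. Other libraries of the 4 groups also took COL16A1 (1), COL1A2 (0.99 to 1) and COL9A1 (-1 to -0.91) under the threshold when left out, and without scaling factors COL1A2 was at 0.96. Without the 3 libraries that stood apart COL11A1 was at 0.93, COL9A1 at -0.74 and COL3A1 at 8.23.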

How the results depend on the processing

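Over 25 comparisons, 283 calls of a collagen gene were recomputed. Of these, 281 held with RLE factors and 281 without scaling factors, 268 of 283 without a filter on low counts, 255 of 256 under the stricter filter, 271 of 282 with DESeq2, which gave 1 no adjusted p, and 249 of 253 when only the groups compared were fitted. None changed direction under these settings, and 235 held in every setting, and in every run that left out a library, in which they were tested. The single call in the BMP4 condition at 1 h against untreated cells, COL10A1, became 0 without a filter, under the stricter filter (where it was not tested) and with DESeq2. When each library was left out in turn that count ran from 0 to 1. The 7 calls in the Activin condition at 12 h became 4 to 6, with 4 when untreated replicate 1 was left out. The counts between the conditions at 96 h ran from 21 to 23 and the counts of changed differences from 15 to 18. Without the 3 libraries that stood apart 274 of 283 calls held.

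The labels give the groups the same replicate numbers. Same-numbered libraries did not deviate together (correlations from -0.239 to 0.215), so the numbers were not taken to pair libraries, and with the replicate block 282 of 283 calls held and 21 collagen genes were called between the conditions at 96 h. Of the 48 calls lost at least once, 29 were of genes under 5 CPM in every group mean, and for these the depth limits what can be read. The cause of the lost calls was not tested.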
